A study of Mus musculus with 2 samples.

Results

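Glycolysis and the tricarboxylic acid cycle were described in mouse splenic B cells through 37 genes that encode 2 glucose transporters, the enzymes that turn glucose into pyruvate and lactate, the pyruvate dehydrogenase complex and the enzymes of the cycle. Members were the probe sets whose single annotated gene symbol was one of these 37, which gave 74 probe sets of 35 genes, of 12394 genes named in this way on the array. Gpi1, which encodes glucose-6-phosphate isomerase, and Eno1, which encodes enolase, had no such probe set and were not analysed here. Gapdh, which encodes glyceraldehyde-3-phosphate dehydrogenase, was represented only by 3 control probe sets of the array and is described apart, so that 71 probe sets of 34 genes remained. A further 2 probe sets named Gapdh together with other genes, and 1 named Hk1 together with other genes, and these were not used.

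The cells were sorted by flow cytometry from spleen for surface IgM and IgD, which mature B cells carry together. Both samples were wild-type, without genetic modification, in a series whose other arm lacks the transcription factor SRF. That arm was not analysed here, so the 2 arrays form 1 group and no genotype was compared. Strain, sex, age, any treatment and the number of mice per sample are not given in the sources used here, and neither is whether the samples came from separate mice, so the spread between them may be technical. With 2 samples of 1 group no difference was tested and no p-value was computed.

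Glycolysis splits glucose in the cytosol into pyruvate, yielding a small amount of ATP and reduced NAD. Pyruvate is then either reduced to lactate, which restores oxidised NAD, or carried into mitochondria, where the pyruvate dehydrogenase complex makes acetyl-CoA for the tricarboxylic acid cycle. Resting B cells use little glucose, and activation through the antigen receptor raises glucose uptake and glycolytic enzymes. Several steps are catalysed by isoenzymes from separate genes whose use differs between tissues.

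Values are deposited MAS5 signals on a linear scale, 1 per probe set. An array's floor was the 90th percentile of its signals over 103 probe sets of 65 genes of liver, brain, testis, muscle and other organs. It was 99.4 on replicate 2 and 181 on replicate 1, while the median gene probe set had a signal of 66.6 and 103. A signal over this floor is called detected, and a gene is called detected on both arrays when 1 probe set or more exceeded both floors. The level of a gene was read from the probe set with its highest mean log2 signal. A difference is the log2 signal on replicate 2 less that on replicate 1, so a positive one means higher on replicate 2. The standard deviation (SD) between the samples, pooled over the 4540 named probe sets detected on both arrays, was 0.65 on the log2 scale, or 1.56-fold. Probes differ in affinity, so signals of different genes, or of isoenzymes, were set against the floor and not against each other. Of the B cell markers, 7 of 8 measured were detected on both arrays, Pax5 being the exception with 15.6 and 21.5. Their signals summed to 38644 on replicate 2 and 39519 on replicate 1, with single markers apart in either direction. Cd79a gave 192 and 2931, Cd74 7422 and 15712, and Ms4a1 6347 and 3394. Markers of T, NK, erythroid and dividing cells were detected on both in 0 of 17 cases, against 2 of 5 for monocytes and macrophages, 2 of 4 for neutrophils and 2 of 5 for plasma cells. Summed signals on replicates 2 and 1 were 565 and 891 for monocytes and macrophages, 926 and 717 for neutrophils and 2436 and 2273 for plasma cells. Within these lists too single genes ran opposite ways. For neutrophils S100a8 gave 449.9 and 164 and Ngp 187 and 327. The plasma cell markers detected on both were Xbp1, with 1540 and 569, and Irf4, with 348 and 1270. The others on that list were not detected on both, namely Sdc1 with 52.4 and 116, Prdm1 with 42.2 and 222, and Jchain with 453.5 and 94.7. The part of such cells in the results below was not tested, and more cells of a type cannot be told apart from more RNA per cell.

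Most members were detected in both samples. They were 24 of 34 measured genes, or 70.6%, against 27.9% of all 12393 genes. By probe set it was 38 of 71, or 53.5%, against 22.3% of all named probe sets. A further 6 members were detected on replicate 2 only, 3 on replicate 1 only and 1 on neither. Glucose uptake and glycolysis had 9 of 13 genes detected on both arrays, lactate dehydrogenase 1 of 2, the pyruvate dehydrogenase complex 2 of 4 and the cycle 12 of 15. In the plot of signals by member, each of these genes has its red circle above the red line and its blue square above the blue line.

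**Figure D1:**
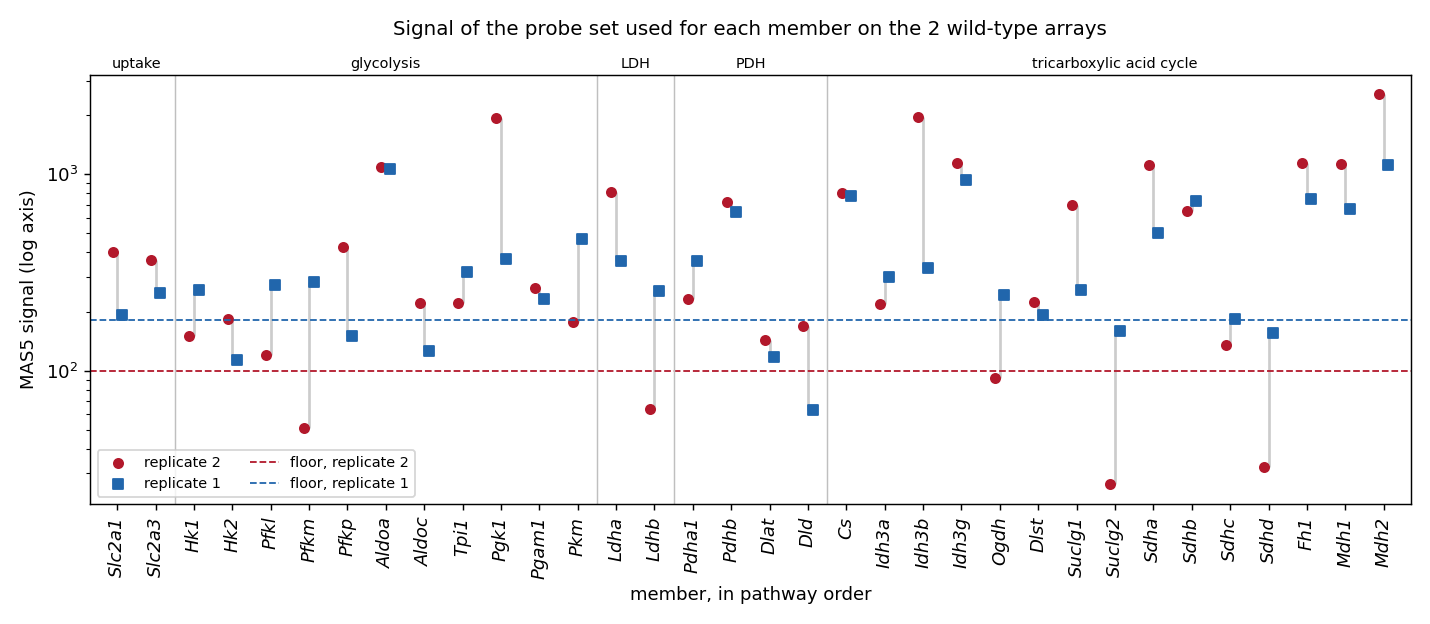
MAS5 signal (log axis) of the probe set used for each of 34 members, in pathway order, on replicate 2 (red circles) and replicate 1 (blue squares), with the floor of each array as a dashed line of its colour (99.4 and 181). Aldoa, Cs, Pdhb and Idh3g nearly coincide on both arrays, while Pfkm, Ldhb, Ogdh, Suclg2 and Sdhd drop below the floor on replicate 2 by the probe set shown.

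The genes of both transporters that bring glucose into the cell were detected on both arrays. Slc2a1 encodes GLUT1, the widespread basal transporter, and had all 3 of its probe sets detected on both arrays. They gave 404 on replicate 2 and 193 on replicate 1, 293 and 242, and 126 and 193. The brightest was thus 2.10-fold higher on replicate 2, and the dimmest was lower there. Slc2a3 encodes GLUT3, a transporter of high affinity, and 1 of its 4 probe sets was detected on both arrays, with 364 on replicate 2 and 248 on replicate 1. Another Slc2a3 probe set gave 582 and 144, a further one 5.6 and 189, and the last 27.0 and 68.6. Neither transporter therefore had a direction that its probe sets shared.

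Hexokinases trap glucose in the cell by phosphorylation. Hk1, the constitutive isoenzyme, was detected on both arrays, with 150.1 on replicate 2 and 259 on replicate 1. Hk2, the inducible isoenzyme of muscle and of growing cells, was detected on replicate 2 only, with 183 against 114 on replicate 1. The second Hk1 probe set, below the floor on both, gave 93.2 and 152, lower on replicate 2 like the first.

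Phosphofructokinase commits the sugar to glycolysis, and its 3 genes, named for liver, muscle and platelet, gave 3 different results. Pfkl, the liver type, was detected on both arrays, with 120 on replicate 2 and 274 on replicate 1, 2.28-fold higher on replicate 1. Pfkm, the muscle type, gave 51.3 and 281, detected on replicate 1 only. Pfkp, the platelet type, gave 426 and 150.0, detected on replicate 2 only. The liver type alone was thus detected in both samples, though not with a floor at the 95th percentile, which is 122 on replicate 2. The other Pfkl probe set gave 81.8 and 41.2, below the floor on both. That of Pfkp gave 6.3 and 25.9.

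Aldolase splits the 6-carbon sugar into 3-carbon sugars. Aldoa, the form of muscle and of most tissues, had a signal of 1076 ± 24.0 (SD, n = 2), with 1093 on replicate 2 and 1059 on replicate 1. All 4 Aldoa probe sets were detected on both arrays, with differences from -0.19 to 0.71. All of them end in _x_at, the array maker's suffix for probe sets that may also bind other transcripts. Aldoc, the brain form, was detected on replicate 2 only, with 221 and 126. Its second probe set gave 13.3 and 8.6, far below the floor on both.

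The 3-carbon steps followed. Tpi1, which interconverts the products of aldolase, had 1 of 3 probe sets detected on both arrays, at 220.0 on replicate 2 and 319 on replicate 1. The other Tpi1 probe sets gave 136 and 84.3, and 141 and 94.4, and so ran the other way. Pgk1, phosphoglycerate kinase, which makes the first ATP of the pathway, was 5.22-fold higher on replicate 2 by the brightest of its probe sets, with 1938 against 371. That probe set ends in _x_at, and the one that does not gave 387 and 355, a difference of 0.12. A further Pgk1 probe set with that suffix gave 398 and 147, below the floor on replicate 1. Pgam1, phosphoglycerate mutase, gave 265 and 233 by a single probe set. Pkm, which encodes the pyruvate kinase of tissues other than liver and red cells and forms the last ATP of the pathway, was 2.66-fold higher on replicate 1 by a single probe set, with 176 on replicate 2 and 470.0 on replicate 1.

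Gapdh was seen through control probe sets placed along its mRNA. At the 3′ end the signal was 824 on replicate 2 and 862 on replicate 1. Their mean was 843 ± 26.5 (SD, n = 2). The middle probe set gave 97.5 and 797, and the 5′ probe set 13.5 and 656. On replicate 2 the middle and 5′ signals were below the floor, so the 3′ signal was at least 8.29-fold that of either, against 1.08-fold for the middle and 1.31-fold for the 5′ end on replicate 1. For Actb, the actin mRNA probed in the same way, the 3′ to 5′ ratio was 8.15 on replicate 2 and 3.57 on replicate 1, and the 3′ to middle ratio 3.07 and 4.23. The part of these ratios in the differences of the other members was not tested.

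**Figure D2:**
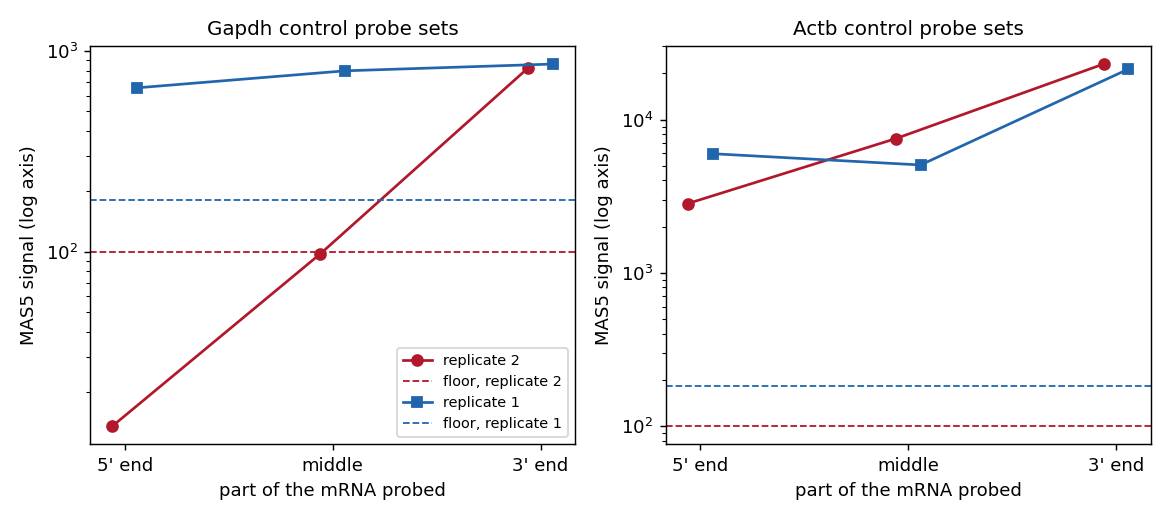
MAS5 signal (log axis) of the control probe sets at the 5′ end, the middle and the 3′ end of the Gapdh mRNA (left) and the Actb mRNA (right) on replicate 2 (red) and replicate 1 (blue), with the floors as dashed lines. For Gapdh the arrays meet at the 3′ end, with 824 and 862, and part at the 5′ end, with 13.5 and 656.

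Lactate dehydrogenase is a tetramer of A and B subunits, of which A predominates where pyruvate is reduced to lactate and B where lactate is oxidised. Ldha, for the A subunit, was detected on both arrays by a single probe set. It gave 810 on replicate 2 and 362 on replicate 1, 2.24-fold higher on replicate 2. Ldhb, for the B subunit, had 4 probe sets, and 0 of them were detected on both arrays. Its brightest gave 63.7 on replicate 2 and 254 on replicate 1. For the others the signals were 43.5 and 60.1, 11.7 and 2.5, and 7.1 and 143. On replicate 2 all 4 Ldhb probe sets were thus below the floor, and on replicate 1 the brightest was above it.

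Across the 6 steps with isoenzymes from several genes, from transporter to malate dehydrogenase, 8 of 13 isoenzymes were detected on both arrays. These were Slc2a1, Slc2a3, Hk1, Pfkl, Aldoa, Ldha, Mdh1 and Mdh2. The share of all genes detected on both was 27.9%. Each step had at least 1 of these isoenzymes, but with a floor at the 95th percentile Pfkl was lost. That left 7 isoenzymes and none for phosphofructokinase, with 20.4% of all genes detected on both. Of the other 5 isoenzymes, Hk2, Pfkp and Aldoc were detected on replicate 2 only, and Pfkm and Ldhb on replicate 1 only. Most isoenzymes were represented by probe sets ending in _x_at, _s_at or _a_at. Without these, 2 isoenzymes were detected on both arrays, while Hk1, Pfkl, Aldoa, Ldha, Ldhb and Mdh2 had no probe set left. Of all genes 23.1% were then detected on both.

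The pyruvate dehydrogenase complex joins glycolysis to the cycle. Its first enzyme, E1, is built from Pdha1 and Pdhb products, and both genes were detected on both arrays. Pdha1 gave 232 on replicate 2 and 361 on replicate 1. By its second probe set the signals were 181 and 256. The 2 Pdha1 probe sets differed by -0.64 and -0.50, the same way and less than 2-fold. Pdhb had a signal of 686 ± 55.7 (SD, n = 2), with 725 on replicate 2 and 646 on replicate 1, while its other probe set, at 46.3 and 114, was below the floor on both. Dlat, for the acetyltransferase E2, gave 143 and 118, and by its other probe sets 121 and 42.5, and 69.1 and 32.6. Dld, for the dihydrolipoamide dehydrogenase E3 that other complexes share, gave 170 and 62.9. Dlat and Dld were detected on replicate 2 only.

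Citrate synthase, encoded by Cs, opens the cycle. Cs had a signal of 788 ± 19.8 (SD, n = 2), with 802 on replicate 2 and 774 on replicate 1. Another Cs probe set detected on both arrays gave 162 and 298, so that its difference, -0.87, was not that of the brightest, 0.05, and the last gave 208 and 165. Isocitrate dehydrogenase 3 is the NAD-linked enzyme of the cycle, with a catalytic subunit from Idh3a and further subunits from Idh3b and Idh3g. All 3 genes were detected on both arrays. Idh3a gave 219 on replicate 2 and 300.0 on replicate 1. The other Idh3a probe sets gave 25.9 and 103, and 26.9 and 39.3, none over the floor. Idh3b gave 1954 and 335 by the brightest of its probe sets, 5.83-fold higher on replicate 2, and 777 and 508 by the other. Idh3g had a signal of 1043 ± 146 (SD, n = 2), with 1146 on replicate 2 and 940 on replicate 1. By its second probe set the signals were 592 and 519. Idh3b and Idh3g were thus higher on replicate 2 by every probe set and Idh3a was lower there. Among probe sets detected on both arrays, only the difference of the brightest Idh3b probe set was over 2-fold.

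The 2-oxoglutarate dehydrogenase complex, which makes succinyl-CoA, was represented by its first 2 enzymes. Ogdh, for E1, gave 91.4 on replicate 2 and 242 on replicate 1, detected on replicate 1 only. Dlst, for E2, gave 223 and 193, detected on both arrays, the second near the floor of 181. Its other probe set, at 63.3 and 55.1, was below the floor on both. Succinyl-CoA ligase pairs the subunit from Suclg1 with one from Suclg2, for the GTP form, or from Sucla2, for the ATP form. Suclg1 was 2.72-fold higher on replicate 2 by a single probe set, with 701 and 257. Suclg2, at 26.4 and 160.2, was the only member below the floor on both arrays. Sucla2, which is not a member, gave 673 on replicate 2 and 263 on replicate 1, above the floor on both, and was 2.56-fold higher on replicate 2. The GTP-form subunit was thus below the floor in samples where the ATP-form subunit was above it.

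Succinate dehydrogenase belongs to the cycle and is also complex II of the respiratory chain. Sdha, for its flavoprotein, gave 1117 on replicate 2 and 500 on replicate 1 and was 2.24-fold higher on replicate 2. Its second probe set gave 465 and 226, also over 2-fold. Sdhb, for the iron-sulphur subunit, had a signal of 689 ± 57.6 (SD, n = 2), with 648 on replicate 2 and 730 on replicate 1. Of the membrane anchors, Sdhc gave 136 and 184, the second just above the floor of replicate 1, and its other probe set 124 and 156. Sdhd had no probe set detected on both arrays, with 32.2 and 155 by the brightest and 118 and 21.3 by the other, which ran opposite ways. The 4 subunits of this complex therefore did not differ together between the samples.

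The last steps of the cycle regenerate oxaloacetate. Fh1, fumarase, gave 1136 on replicate 2 and 752 on replicate 1 by a single probe set, a difference of 0.59. Mdh1 encodes the cytosolic malate dehydrogenase of the malate-aspartate shuttle, and Mdh2 the mitochondrial enzyme of the cycle. Mdh1 gave 1126 on replicate 2 and 668 on replicate 1, and 2 other Mdh1 probe sets above the floor gave 893 and 471, and 556 and 272. These 3 were higher on replicate 2 by 0.75 to 1.03 on the log2 scale. The remaining Mdh1 probe set, below the floor on both arrays, gave 16.5 and 39.3. Mdh2 was 2.29-fold higher on replicate 2 by the brightest of its probe sets, with 2552 against 1116, and gave 1093 and 977 by the other.

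Of the 24 members detected on both arrays, 9 lay over 2-fold apart, against 26.6% of all genes so detected. Replicate 2 was the higher array for 7 of them, against 15.3% of all genes, and replicate 1 for 2, against 11.4%. As shares of the 24 members these are 29.2% and 8.33%. The 7 were Slc2a1, Pgk1, Ldha, Idh3b, Suclg1, Sdha and Mdh2, and the 2 were Pfkl and Pkm. With each array centred on its median the counts were 10 and 0, or 41.7% and 0% of the members, against 36.3% and 2.23% of all genes so centred. After quantile normalization they were 4 and 1, or 16.7% and 4.17%, against 9.69% and 10.6%. Median centring moved the median difference of all detected genes to 0.66, against 0.03 in the deposited values, and quantile normalization moved it to -0.07. The members' median was 0.20 in the deposited values, 0.83 after centring and -0.04 after quantile normalization, above that of all genes in each case. The SD pooled over the members' own probe sets was 0.64, against 0.65 over all.

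**Figure D3:**
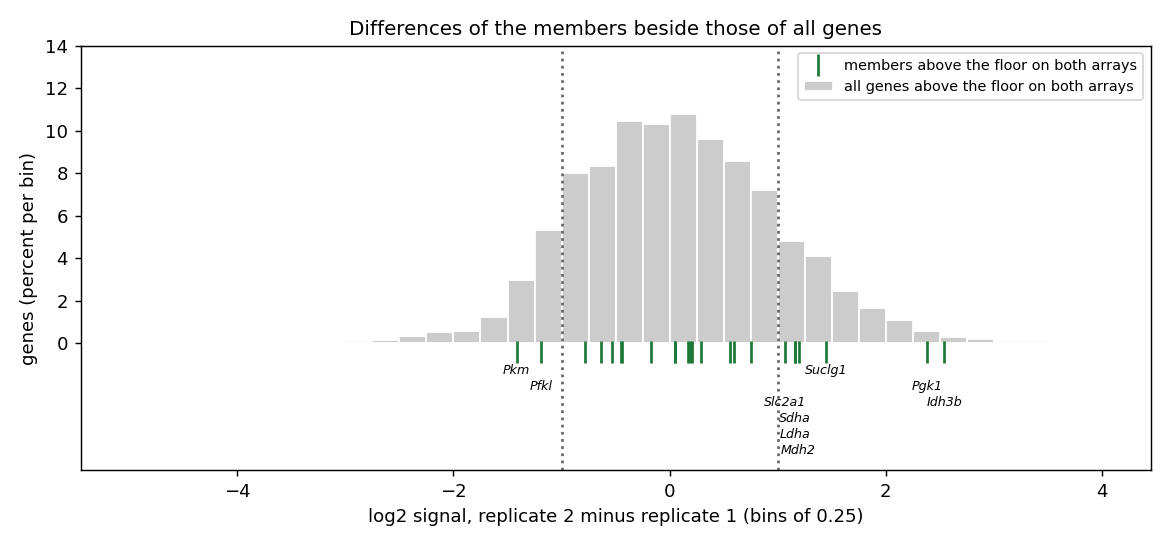
Difference in log2 signal, replicate 2 minus replicate 1, for 3458 genes detected on both arrays (grey bars, percent of genes per bin of 0.25) and for the 24 members among them (green ticks), with dotted lines at 2-fold. The named ticks are the 7 members past 2-fold on the right and the 2 on the left, and the other 15 lie between the lines.

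By segment, the median difference was 0.05 over 9 genes of uptake and glycolysis and 0.44 over 12 genes of the cycle. In the first, 5 genes were higher on replicate 2 and 4 on replicate 1, and in the second 9 and 3. For all genes detected on both arrays the median was 0.03, and 51.4% were higher on replicate 2. Over the glycolytic genes the median was -0.33 without probe sets ending in _x_at and -0.52 after quantile normalization, so its sign depended on the processing. That of the cycle was 0.09 after quantile normalization, where the median of all genes was -0.07. All 4 cycle genes past 2-fold, Idh3b, Suclg1, Sdha and Mdh2, were higher on replicate 2, while uptake and glycolysis had 2 each way. Of all genes detected on both arrays, 15.3% were past 2-fold on replicate 2 and 11.4% on replicate 1. After quantile normalization Sdha, at 0.65, and Mdh2, at 0.52, were within 2-fold, as were Ldha at 0.81 and Pfkl at -0.96. Whether the segments differ was not tested.

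Probe sets of 1 gene often disagreed on the difference between the samples. Of 10 members with several probe sets detected on both arrays, 7 had differences of 1 sign, or 70.0%, against 50.6% of 786 such genes in all. The exceptions were Slc2a1, Aldoa and Cs. The gap between the highest and the lowest difference of a member ran from 0.10 for Idh3g to 2.26 for Pgk1. Of the 9 members past 2-fold, 5 had a further probe set detected on both arrays, and for 1 of them, Sdha, that probe set was also over 2-fold the same way. The corresponding share over all such genes was 26%, or 74 of 285. In the plot of all probe sets, the filled points of Sdha, Mdh1, Idh3g and Pdha1 lie close together and those of Pgk1, Idh3b and Slc2a1 lie far apart.

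**Figure D4:**
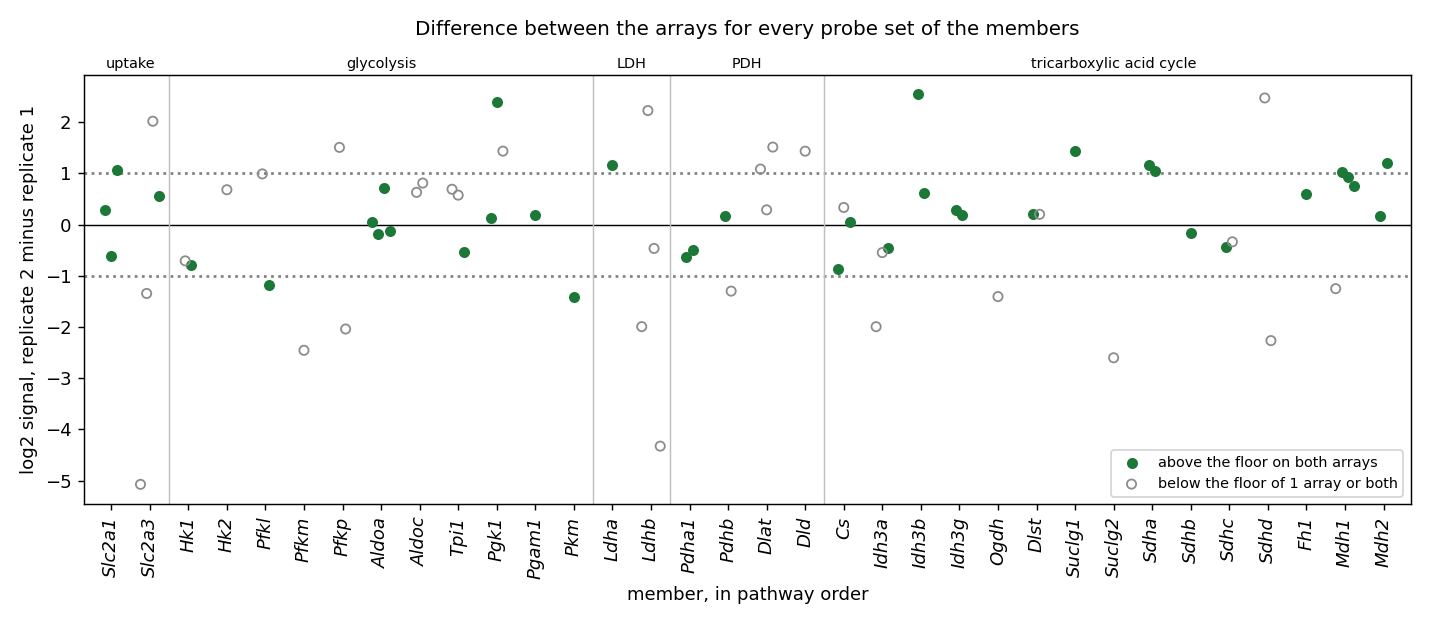
Difference in log2 signal, replicate 2 minus replicate 1, for each of the 71 probe sets of 34 members in pathway order, filled where the probe set was detected on both arrays (38) and open otherwise, with dotted lines at 2-fold. Open points spread from -5.07 for a Slc2a3 probe set to 2.47 for an Sdhd probe set, and filled points from -1.41 for Pkm to 2.54 for Idh3b.

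Pgk1, Pdha1 and Idh3g lie on chromosome X. Their differences by the probe sets used were 2.38, -0.64 and 0.29, with no direction in common.

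Other genes of glucose and pyruvate metabolism were taken from 7 lists with 51 measured genes, of which 15 were detected on both arrays, or 29.4%, near the 27.9% of all genes. Isoenzymes restricted to other tissues were detected on both in 0 of 10 cases. The floor was itself set on genes of other organs, of which 4 of 65 were detected on both, so a low count was built in. Slc2a4, the insulin-responsive transporter of muscle and fat, was detected on replicate 1 only, with 53.6 on replicate 2 and 274 on replicate 1, and Pklr, the pyruvate kinase of liver and red cells, on replicate 2 only, with 106 and 91.9. Eno3, the muscle enolase, gave 98.0 and 180, just below the floor on each array. Pgk2, Gapdhs and Ldhc, which belong to sperm, gave at most 18.0 on replicate 2 and 83.3 on replicate 1. The other hexokinase and bypass genes were detected on both in 0 of 3 cases, among them Adpgk, an ADP-dependent glucokinase, with 42.2 and 284.

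The pentose phosphate pathway, which branches from glycolysis to make NADPH and ribose, was detected on both arrays in 5 of 6 cases. The share over all genes was 27.9%. Tkt, transketolase, gave 2479 on replicate 2 and 1710 on replicate 1, but 199.8 and 397 by its other probe set, which was also detected on both. Taldo1, transaldolase, was 2.04-fold higher on replicate 2, with 906 and 445. Pgd, which makes NADPH, was 6.74-fold higher there by the brightest of its probe sets, with 1316 and 195. Its other probe sets ending in _x_at gave 851.5 and 215, and 673 and 333, also over 2-fold higher on replicate 2. The Pgd probe set without that suffix gave 184 and 187. Pgls, the lactonase before Pgd, was 2.29-fold higher on replicate 1, with 277 and 636. Rpia, the ribose isomerase, gave 479 and 340.3. Of the 5 genes detected on both arrays, 2 were past 2-fold on replicate 2 and 1 on replicate 1. The shares over all genes so detected were 15.3% and 11.4%.

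Regulators of glycolysis were detected on both arrays in 1 of 6 cases and those of pyruvate dehydrogenase in 1 of 4, against 27.9% of all genes. The first was Txnip, an inhibitor of glucose uptake, with 1181 on replicate 2 and 561 on replicate 1, or 2.10-fold. Its other probe set gave 11.3 and 94.3, below the floor on both. Myc, a transcription factor that drives glycolytic genes, gave 77.3 and 661, detected on replicate 1 only. Hif1a, which drives the same genes in low oxygen, had 4 probe sets, all below the floor on replicate 1. The brightest by mean log2 signal gave 180.3 and 112. The others gave 305 and 18.7, 129.5 and 100.5, and 6.2 and 35.3. The second was the inhibitory kinase gene Pdk1, with 246 and 239, and 161 and 5.0 by its other probe set.

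Carriers of pyruvate, lactate, citrate and other acids were detected on both arrays in 2 of 7 cases, or 28.6%, against 27.9% of all genes. They were the mitochondrial carriers Slc25a10, for dicarboxylates, with 228 on replicate 2 and 321 on replicate 1, and Slc25a11, for 2-oxoglutarate, with 181 and 239. The other probe set of Slc25a10 ran the other way and was below the floor on both. Of the rest, Mpc1, for pyruvate, gave 131 and 179, detected on replicate 2 only, and Bsg gave 6.8 and 172, below the floor on both. The lactate transporters Slc16a1 and Slc16a3, named after their values were seen, gave 5.3 and 30.8, and 6.6 and 41.8. Slc16a7 gave 87.2 and 37.4, also below the floor on both. Aconitases and other genes around the cycle were detected on both in 6 of 15 cases. Got2, the mitochondrial aspartate aminotransferase, gave 1002 and 618, and 24.5 and 106 by its other probe set. Glud1, glutamate dehydrogenase, gave 425 and 541, and 399.9 and 180.0 by its other. Acly, which cleaves exported citrate, gave 338 and 514 by the brightest of its probe sets and 710 and 218 by another, in opposite directions. Sdhaf2, an assembly factor that loads flavin onto the Sdha product, was 2.55-fold higher on replicate 1, with 246 and 627, whereas Sdha itself was higher on replicate 2. The other Sdhaf2 probe set, below the floor on replicate 1, gave 173 and 146.

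**Figure D5:**
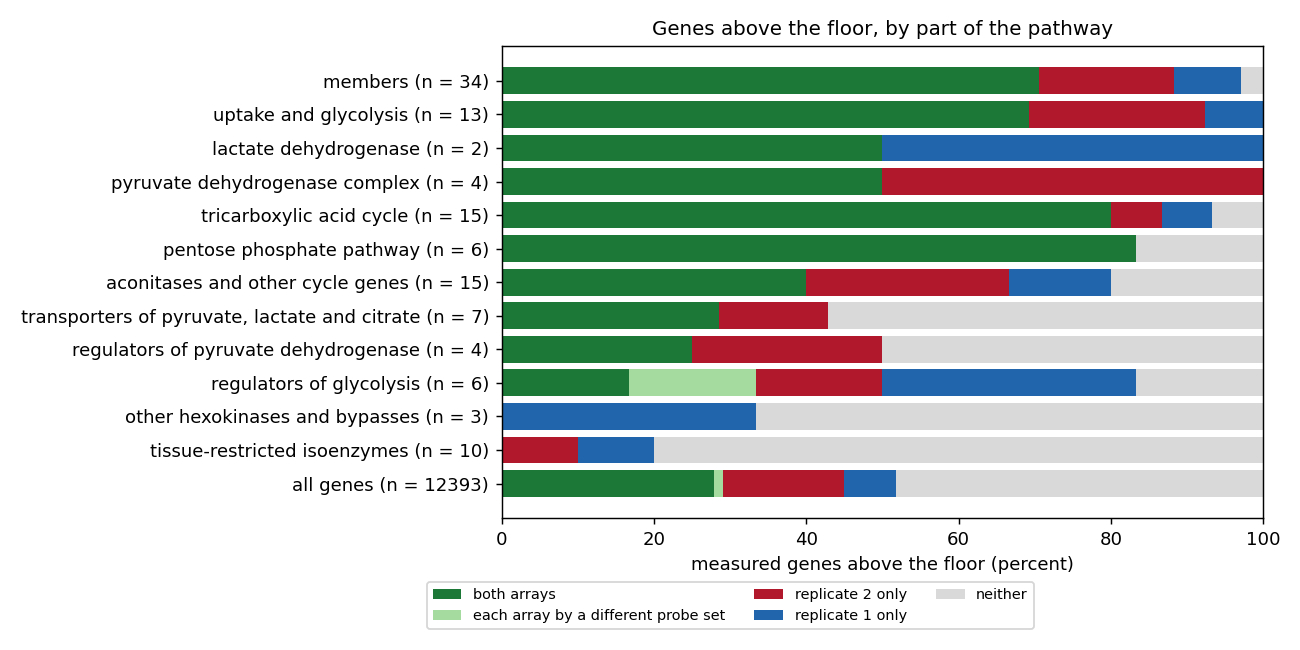
Share of measured genes (percent) detected on both arrays, on each array by a different probe set, on replicate 2 only, on replicate 1 only or on neither, for all members, their 4 segments, the 7 further lists and all genes, with the number measured beside each name. The cycle (12 of 15) and the pentose phosphate pathway (5 of 6) have the longest green bars, against 27.9% for all genes. The isoenzymes restricted to other tissues, the kind of gene on which the floor was set, have none (0 of 10).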

How the data were processed

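The authors deposited 1 intensity per probe set and array, not in log form. Per the submitters' processing notes the tool was MAS5, for which neither version nor settings are given. Per the labels' protocols, biotinylated cRNA was made from 6 µg of total RNA. With 2% trimmed from either end, replicate 2 averaged 150.1 and replicate 1 150.0, so the arrays had been scaled to a common mean, which also scales their background. No counts lie behind the values, so the number of arrays limits the precision.

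Of 22690 probe sets, 64 controls were set apart. Of the rest, 20380 named 1 gene, 691 several and 1555 none in the platform annotation, and all 35 member symbols were current by Entrez identifier in RefSeq GRCm38.p6. Of 79 genes listed for the floor, 65 were measured. Differences were taken without further normalization, with Python 3.11.15, numpy 2.4.6 and pandas 2.3.3. The procedure was run on simulated data whose noise was far smaller than the spread between these arrays. That run therefore cannot show how many of the 2-fold differences here are noise. Members, lists, floor and naming rule were chosen with earlier results of these data known. Every member is named, and from the other lists up to 4 genes each with the highest signal and those over 2-fold apart. The alternatives were a 95th percentile floor, the array median as floor, no floor, quantile normalization, median centring, log2(signal + 32), averaging a gene's probe sets, leaving out probe sets by suffix, leaving out a replicate and, chosen after seeing the data, averaging a gene's detected probe sets.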

Additional observations from a re-analysis of the deposited data

How the results depend on the processing

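Leaving out probe sets ending in _x_at, _s_at or _a_at left 22 members measured, of which 12 were detected on both arrays, against 24 of 34 as reported. Of all genes 23.1% were then so detected. Leaving them out also left 2 of the isoenzymes detected, while Hk1, Pfkl, Aldoa, Ldha, Ldhb and Mdh2 were no longer measured. It left 3 members over 2-fold apart. Of these 3, 2 were higher on replicate 2 and 1 on replicate 1. As shares of the detected members these are 16.7% and 8.33%, against 9.64% and 12.9% of all genes. The median for uptake and glycolysis was then -0.62, which was the value of Slc2a1, turned from 1.07. Quantile normalization left 5 members over 2-fold apart, 4 on replicate 2 and 1 on replicate 1, or 16.7% and 4.17%, against 9.69% and 10.6% of all genes. Without a floor 16 members were over 2-fold apart, 9 on replicate 2 and 7 on replicate 1, or 26.5% and 20.6%, against 18.4% and 33.3% of all genes. The count higher on replicate 1 was also 1 with the 95th percentile floor, or 5% against 10.1% of all genes. With averaged probe sets it was 1 as well, or 5.56% against 11.6%, and with median centring 0, against 2.23%. With the array median as floor 26 of the other pathway genes were detected, against 15 as reported, or 51.0%, where 43.0% of all genes were detected. On replicate 2 alone 30 of 34 members, 11 of 13 isoenzymes and 24 of 51 other pathway genes were detected. On replicate 1 alone the counts were 27, 10 and 22. Of all 12393 genes, 3458 were detected on both arrays, 1966 on replicate 2 only and 846 on replicate 1 only. A further 148 were detected on each array by a different probe set. By probe set, 71.8% of the members' were detected on replicate 2, against 38.5% of all named probe sets. On replicate 1 the shares were 59.2% and 28.6%. The members' median ran from -0.04 with quantile normalization to 0.83 with median centring over all alternatives. The cause of these shifts was not tested. For Pgk1, the difference of 2.38 was 0.12 without probe sets ending in _x_at, and averaging lowered Idh3b from 2.54 to 1.58 and Slc2a1 from 1.07 to 0.24. The 95th percentile floor lowered the bound on the Gapdh 3′ to 5′ ratio of replicate 2 to 6.73. Signals near the floor, such as those of Sdhc, Dlst and Slc2a1, limit what can be called detected. No paired analysis was possible because there is 1 group.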
